A study of Mus musculus with 6 samples.

Results

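The genes of 9 chemokine and tissue-homing receptors were followed in CD4+ CD25+ T cells of the spleen, a gate that enriches regulatory T cells (Treg cells): Ccr4, Ccr8, Gpr15, Ccr2, Ccr6 and Cxcr3, which guide T cells into peripheral or inflamed tissue, and Ccr7, Cxcr5 and S1pr1, which govern traffic through lymphoid organs. They were taken by gene symbol, current or older, from the annotation of the array. Each of the 9 genes, out of 16825 genes tested, had 1 transcript cluster (the probes summarised as 1 transcript) that named no other gene, and all 9 clusters read at or above the array median on all 6 arrays. The deletion was carried by Keap1_KO mice (labelled Keap1 -/-, VAVcreKeapfl/fl), in which Cre recombinase under the Vav promoter removes a floxed Keap1 gene throughout the blood-forming lineage and not in Treg cells alone. The controls were WT mice (labelled Keap1 +/+), and the labels do not say whether they carried the Cre transgene. Each genotype had 3 arrays, Keap1_KO B, C and D and WT A, D and F. All samples are labelled male and C57BL/6, from spleens of untreated mice. For age, the sample characteristics write 10 to 12 months and the growth protocol writes 6 to 10 weeks, and this conflict could not be settled.

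Chemokine receptors are G protein-coupled receptors that steer leukocytes along gradients of small secreted proteins, the chemokines. Naive and central memory T cells use CCR7 to enter lymph nodes and S1PR1, a receptor for sphingosine 1-phosphate, to leave again, and follicular T cells use CXCR5 to reach B cell follicles. Treg cells that have responded to antigen gain receptors for peripheral sites, among them CCR4 and CCR8 for skin and other barrier tissue and GPR15 for the large intestine. KEAP1 is a ubiquitin ligase adaptor that keeps NRF2, a transcription factor of the antioxidant response, at low levels. The comparison asks how the transcriptome of these cells differs when Keap1 is deleted.

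Values are log2 expression values as deposited, and differences are Keap1_KO minus WT on that scale. The triplicates are described as independent, without a statement that each came from its own mouse, so p-values measure the spread between arrays. Keap1 itself read 4.87, 4.89 and 4.70 on Keap1_KO B, C and D, against 5.30, 5.41 and 5.77 on WT A, D and F, near or below the array medians. The markers Cd4, Cd3e, Il2ra, Ctla4 and Ikzf2 read above the array median on every array, although the series title calls the cells CD4-negative, and Foxp3 lies on a cluster that names more than 1 gene and was not tested. One Keap1_KO array stood apart: over the 16825 genes, Keap1_KO B correlated with WT A at 0.988, above the highest correlation within a genotype (0.983). Results for the receptors are therefore given with and without it, and values of the other named genes only with it. In bulk RNA, more cells of a type and more RNA per cell cannot be told apart.

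The tissue-homing receptor genes Ccr4, Gpr15 and Ccr6 read higher on every Keap1_KO array than on any WT array, with mean differences of 2.43, 2.27 and 1.19. Ccr8 had a difference of 2.20 that rested on 2 of the 3 Keap1_KO arrays. S1pr1 and Ccr2 had differences near 0. No receptor passed the threshold of adjusted p under 0.05 (limma, Benjamini-Hochberg adjustment over the 16825 genes), and no gene of the whole table did (0.0%). At unadjusted p under 0.05, 4 of the 9 receptors were higher in Keap1_KO and none lower, against 8.38% and 1.92% of all genes tested (10.3% in either direction). In 3 of 9 all Keap1_KO arrays lay above all WT arrays, against 9.11% of all genes, and in none did they lie below, against 4.96%. The mean was higher in Keap1_KO for 8 of 9, against 56.5% of all genes, and the median difference over all genes was 0.06. The 9 receptors were chosen with earlier results of these data known, so these counts are a description and not a test.

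**Figure D1:**
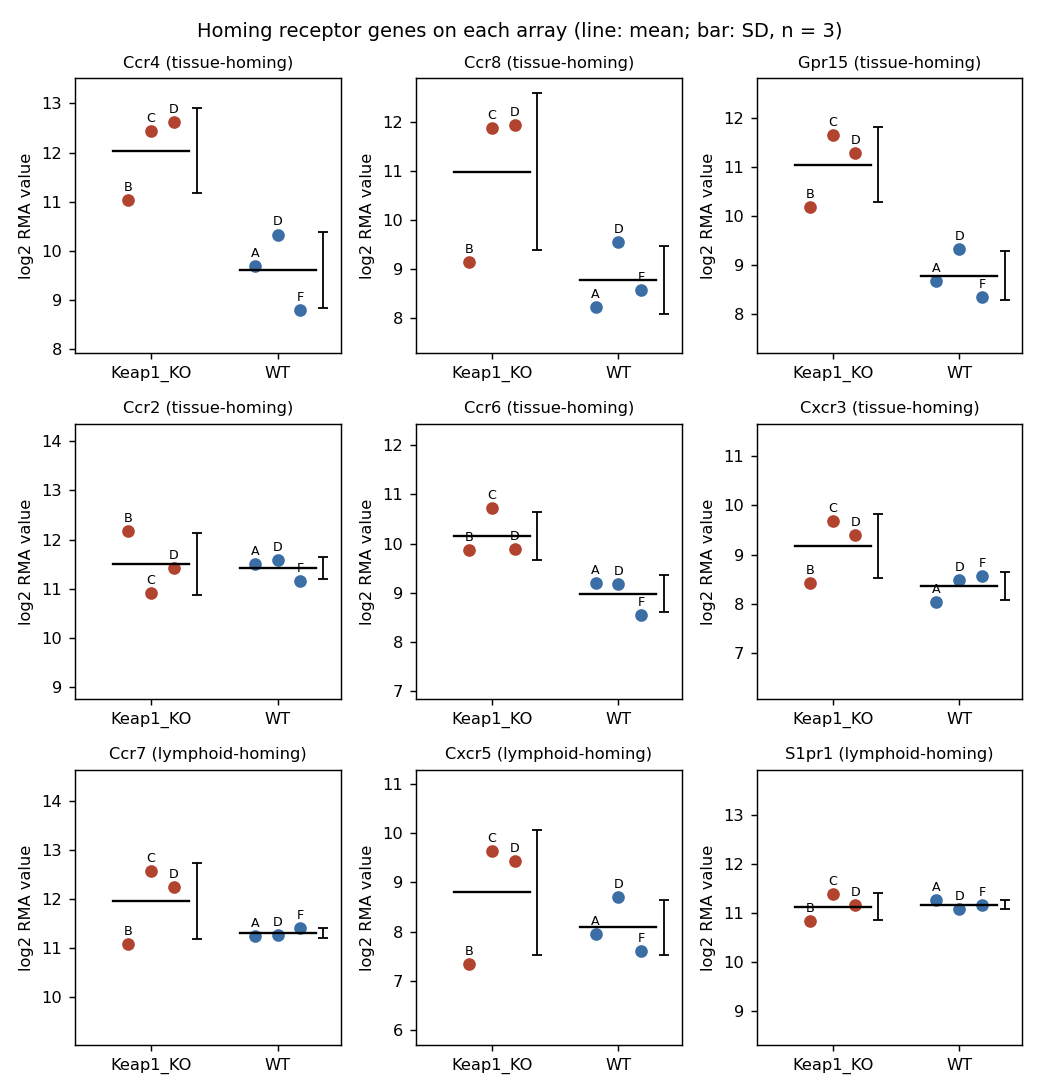
Log2 value of the 9 receptor genes (vertical axes, each spanning the same number of log2 units) on each of the 3 Keap1_KO arrays (red) and 3 WT arrays (blue), with letters for the replicate, lines for means and bars for SD. Ccr4, Gpr15 and Ccr6 show no overlap between genotypes, and Keap1_KO B is the lowest Keap1_KO array for 8 of the 9 genes, the exception being Ccr2.

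The receptors with the largest differences were Ccr4, Gpr15 and Ccr8, and the stretch just upstream of each gene's start is shown for these. The sequences are the 250 bases before the annotated start, from RefSeq (GRCm38.p6), on the strand of the gene. Capitals mark matches to any of 5 short motifs: TGACNNNGC (core of the antioxidant response element bound by NRF2), TGANTCA (AP-1 and BATF-JUN), GCGTG (aryl hydrocarbon receptor), GATAA (GATA factors) and TTCNNNGAA (STAT5), searched on both strands.
Ccr4, chr9:114496545-114496794, minus strand: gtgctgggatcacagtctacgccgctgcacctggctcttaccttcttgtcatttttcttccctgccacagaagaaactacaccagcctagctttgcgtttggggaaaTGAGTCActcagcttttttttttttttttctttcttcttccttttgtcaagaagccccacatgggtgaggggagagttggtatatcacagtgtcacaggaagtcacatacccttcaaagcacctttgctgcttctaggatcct
Gpr15, chr16:58718873-58719122, minus strand: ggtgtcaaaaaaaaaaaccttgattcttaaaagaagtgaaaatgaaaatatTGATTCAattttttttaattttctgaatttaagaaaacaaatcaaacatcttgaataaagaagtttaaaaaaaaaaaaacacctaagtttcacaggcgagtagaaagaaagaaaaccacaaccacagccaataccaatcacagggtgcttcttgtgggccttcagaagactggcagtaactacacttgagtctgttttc
Ccr8, chr9:120091883-120092132, plus strand: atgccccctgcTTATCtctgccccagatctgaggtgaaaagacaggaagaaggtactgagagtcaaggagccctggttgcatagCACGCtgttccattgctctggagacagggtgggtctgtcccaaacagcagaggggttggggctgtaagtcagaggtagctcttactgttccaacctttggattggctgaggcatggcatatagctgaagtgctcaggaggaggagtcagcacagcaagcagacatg

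TGANTCA occurred 143 to 137 bases before the start of Ccr4 and 199 to 193 bases before that of Gpr15, and in 6.75% of the 32851 upstream windows of this length in the table. The Ccr8 window held a match to GCGTG (28.2% of all windows) and one to GATAA (22.6%), each on the opposite strand. The letters of TGACNNNGC, found in 10.2% of windows, were in none of the upstream windows listed for the 6 tissue-homing receptors. Of the other members, Ccr6 held TTCNNNGAA (7.02% of windows) at 2 places in one of its 2 listed windows and GATAA in the other, Ccr2 held GATAA and Cxcr3 held GCGTG. These matches describe the letters only.

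Ccr4, the receptor for CCL17 and CCL22, read 11.04, 12.44 and 12.63 on Keap1_KO B, C and D, against 9.69, 10.33 and 8.79 on WT A, D and F. Every Keap1_KO array lay above every WT array, and Keap1_KO B was the lowest of its genotype. The difference was 2.43 (5.4-fold, SE 0.55, 95% interval 1.12 to 3.75), with unadjusted limma p = 0.00369 and adjusted p = 0.476, and an exact permutation test (two-sided) gave p = 0.1, which is the smallest that 3 arrays against 3 allow. Among all genes tested, 0.279% had a difference at least as large.

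Gpr15, a receptor that brings T cells to the large intestine, read 10.19, 11.66 and 11.28 on Keap1_KO B, C and D, against 8.67, 9.33 and 8.35 on WT A, D and F. The genotypes did not overlap, and Keap1_KO C was the highest array. Its difference of 2.27 (4.81-fold, SE 0.44, 95% interval 1.21 to 3.32) came with unadjusted limma p = 0.00171, the lowest of the 9 receptors, and adjusted p = 0.476 (exact permutation p = 0.1). An unadjusted p this low or lower was found for 0.166% of all genes.

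Ccr8, the receptor for CCL1 and a mark of Treg cells in tissue, read 9.14, 11.87 and 11.94 on Keap1_KO B, C and D, against 8.22, 9.55 and 8.57 on WT A, D and F. Keap1_KO C and D lay above every WT array, and Keap1_KO B lay below WT D. The difference of 2.20 (4.61-fold, SE 0.81, 95% interval 0.26 to 4.15) had unadjusted limma p = 0.0317, adjusted p = 0.476 and exact permutation p = 0.2. Its SD was 1.60 over the Keap1_KO arrays and 0.69 over the WT arrays.

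Ccr6, the receptor for CCL20 carried by Th17-like and some Treg cells and by B cells, read 9.87, 10.72 and 9.88 on Keap1_KO B, C and D, against 9.20, 9.18 and 8.54 on WT A, D and F. Here Keap1_KO B and D were nearly equal, and both lay above all WT arrays. The difference was 1.19 (2.27-fold, SE 0.31, 95% interval 0.43 to 1.94, unadjusted limma p = 0.00804, adjusted p = 0.476, exact permutation p = 0.1).

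Cxcr3, the receptor of type 1 inflammation for CXCL9 and CXCL10, read 8.43, 9.68 and 9.40 on Keap1_KO B, C and D, against 8.03, 8.48 and 8.56 on WT A, D and F. Keap1_KO B lay inside the WT range. The difference of 0.81 had a 95% interval of -0.04 to 1.67 (unadjusted limma p = 0.0587, adjusted p = 0.476, exact permutation p = 0.3).

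Ccr2, the receptor for CCL2 carried by monocytes and by activated T cells, departed from the other tissue-homing receptors. It read 12.18, 10.92 and 11.43 on Keap1_KO B, C and D, against 11.50, 11.59 and 11.16 on WT A, D and F, so that Keap1_KO B was the highest of all arrays and Keap1_KO C the lowest. The difference was 0.09 with a 95% interval of -0.72 to 0.91 (adjusted p = 0.911, exact permutation p = 0.9), and it turned to -0.24 without Keap1_KO B and to -0.04 without WT F. For the 6 tested markers of monocytes and macrophages, the mean deviation from their own 6-array means came to -0.46, 0.18 and 1.25 on Keap1_KO B, C and D, against -0.58, 0.56 and -0.96 on WT A, D and F. Their part in the Ccr2 values was not tested.

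Of the lymphoid-homing receptor genes, none had a difference above 0.72. Ccr7, the lymph node entry receptor, read 11.09, 12.57 and 12.24 on Keap1_KO B, C and D, against 11.24, 11.27 and 11.42 on WT A, D and F. The WT arrays lay within 0.19 of each other, Keap1_KO C and D lay above them and Keap1_KO B below them. The difference was 0.66 (1.58-fold, SE 0.38, 95% interval -0.27 to 1.58, adjusted p = 0.504, exact permutation p = 0.4).

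Cxcr5, the follicle-homing receptor of follicular T cells and B cells, read 7.34, 9.64 and 9.43 on Keap1_KO B, C and D, against 7.95, 8.70 and 7.60 on WT A, D and F. Keap1_KO B was the lowest of all arrays and Keap1_KO C the highest. The difference of 0.72 had the second widest interval of the 9 receptors, -0.84 to 2.29 (adjusted p = 0.619, exact permutation p = 0.4).

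S1pr1, the exit receptor, read 10.84, 11.39 and 11.16 on Keap1_KO B, C and D, against 11.27, 11.09 and 11.16 on WT A, D and F. Its arrays overlapped throughout, and the difference was -0.04 (SE 0.19, 95% interval -0.51 to 0.42, adjusted p = 0.928, exact permutation p = 0.9). With each array centred on its median it was 0.07, a setting that moved the median of all genes by 0.112, so no direction is given for S1pr1.

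**Figure D2:**
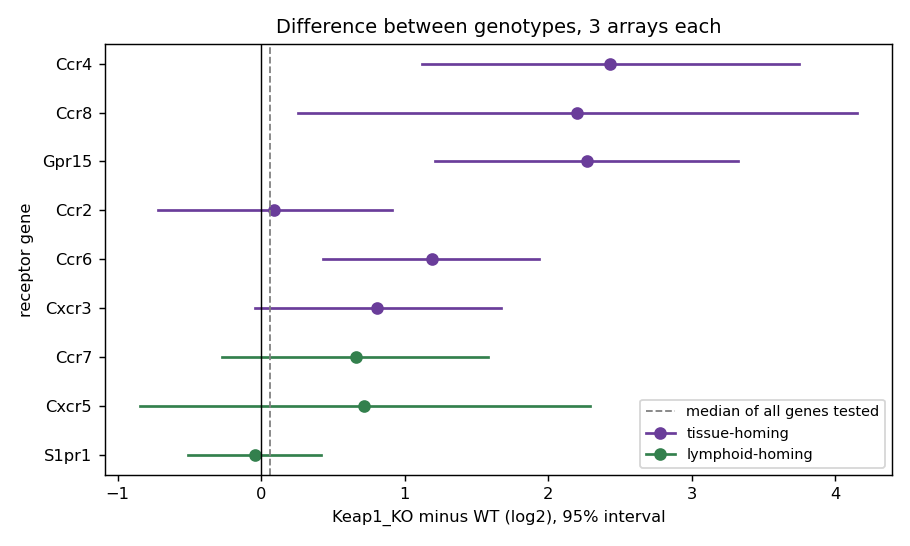
Difference between Keap1_KO and WT (log2, points) with the 95% interval from limma (bars) for each receptor gene, 3 arrays a genotype. The intervals of Ccr4, Gpr15, Ccr6 and Ccr8 lie above 0, those of the other 5 genes include 0, and the dashed line marks the median of all genes at 0.06.

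Leaving out Keap1_KO B changed which receptors passed. That array was singled out from its values, because it correlated with WT A at 0.988. Leaving out such an array, or giving it a low weight, favours a separation of the genotypes. The adjusted p-values of these settings are therefore a description, and with all arrays weighted equally no receptor passed. Without Keap1_KO B, 4 of the 9 receptors passed the adjusted threshold, against 3.22% of all genes that passed as higher in Keap1_KO. These were Gpr15 (difference 2.69, limma adjusted p = 0.0359), Ccr8 (3.13, 0.0371), Ccr4 (2.93, 0.0424) and Ccr7 (1.10, 0.0489), from 2 Keap1_KO arrays against 3 WT arrays. Cxcr3 (1.18, 0.0575), Cxcr5 (1.45, 0.0755) and Ccr6 (1.33, 0.0851) did not pass, nor did Ccr2 and S1pr1. In that comparison 7 of 9 receptors had no overlap, against 31.4% of all genes, and without WT D 4 of 9 had none, Ccr8 being added, against 23.7% of all genes. With limma array weights, which gave Keap1_KO B a weight of 0.352 and WT A 3.38, 5 receptors passed, Ccr4, Ccr8, Gpr15, Ccr6 and Cxcr3, against 9.58% of all genes passing as higher. Leaving out any other single array, none passed, and Ccr4, Gpr15, Ccr8 and Ccr6 had differences of at least 2.03, 1.96, 1.73 and 0.90.

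**Figure D3:**
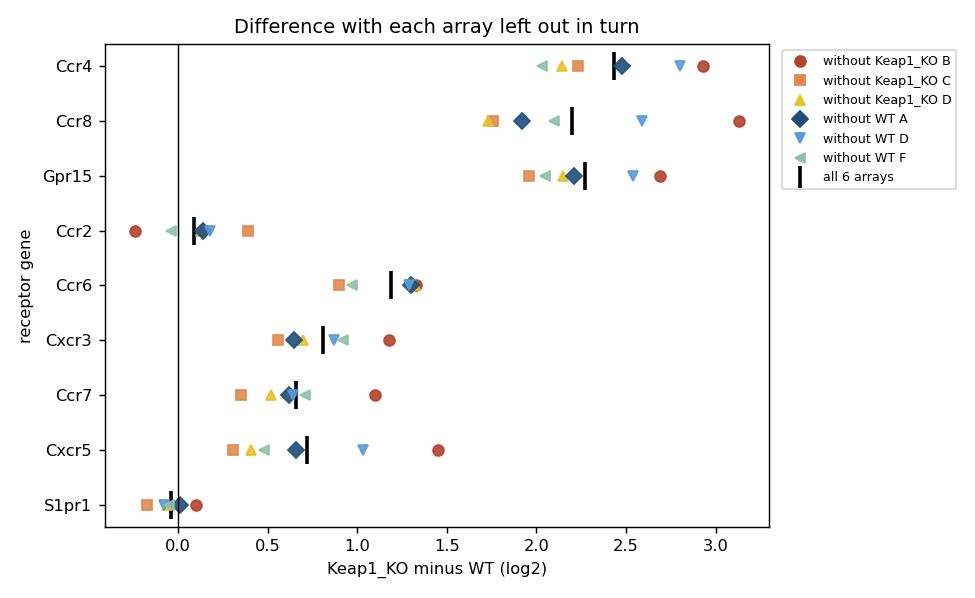
Difference between Keap1_KO and WT (log2, horizontal axis) for each receptor gene with all 6 arrays (black line) and with each array left out in turn (symbols). Leaving out Keap1_KO B gives the largest value for every gene but Ccr2, where it gives the smallest, and Ccr4, Gpr15 and Ccr8 stay above 1.5 throughout.

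Set against each other, the 6 tissue-homing receptors chosen here had larger differences between genotypes than the 3 lymphoid-homing receptors, as a description. It is not a statement about tissue-homing receptors as a class, which was not tested. Of 10 other tested chemokine receptors, of mixed roles, 5 had higher and 5 lower means in Keap1_KO. The gut-homing receptor gene Ccr9 was among the lower (-0.62) and Ccr10 among the higher (0.43). The median difference was 1.69 over the 6 tissue-homing genes and 0.66 over the 3 lymphoid-homing genes, beside 0.06 over all genes. With 1 array left out the medians ranged from 1.33 to 2.01 for the tissue-homing genes and from 0.31 to 1.10 for the lymphoid-homing genes, the lowest being without Keap1_KO C and the highest without Keap1_KO B in both. Cxcr5 alone was 0.31 and Ccr7 alone 0.35 without Keap1_KO C. The mean deviation of the tissue-homing genes came to 0.08, 1.15 and 1.03 on Keap1_KO B, C and D, against -0.85, -0.33 and -1.07 on WT A, D and F. For the lymphoid-homing genes it came to -0.66, 0.79 and 0.53 on Keap1_KO B, C and D, against -0.26, -0.06 and -0.35 on WT A, D and F. Only in the first did the genotypes not overlap. Subtracting the second from the first within each array gave an excess of 0.73, 0.36 and 0.49 on Keap1_KO B, C and D. On WT A, D and F it was -0.59, -0.27 and -0.72. The value of Keap1_KO B counts Ccr2, which read highest of all arrays there (12.18). The lymphoid-homing genes were also lowest on that array (-0.66), so the Keap1_KO arrays are not ranked by this excess. The genotypes differed by 1.05 in this excess, with values of 0.95 to 1.18 over 12 alternative settings. It was not tested, because the genes of each group were chosen with earlier results known.

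General T cell genes varied alongside the receptors. The 7 tested genes of the CD4 T cell list (Cd3d, Cd3e and Cd3g being the brightest) all had higher means in Keap1_KO, against 56.5% of all genes. Their median difference was 0.94. The list deviated by -0.35, 0.69 and 0.77 on Keap1_KO B, C and D, against -0.51, 0.03 and -0.64 on WT A, D and F. Measured from that list within each array, the tissue-homing genes stood at 0.42, 0.46 and 0.26 on Keap1_KO B, C and D, against -0.34, -0.36 and -0.43 on WT A, D and F. The lymphoid-homing genes, on the same measure, stood at -0.31, 0.10 and -0.24 on Keap1_KO B, C and D, against 0.25, -0.09 and 0.29 on WT A, D and F, where the genotypes overlapped. The deviation of the tissue-homing genes was thus above that of the T cell genes on each Keap1_KO array and below it on each WT array. That contrast was chosen after seeing the data, for receptors chosen with earlier results known. It is a description and was not tested. In mean level the tissue-homing genes read lower on every array, at most 11.21 against at least 12.81 for the T cell genes. Of the 8 tested Treg cell markers, 5 had higher and 3 lower means in Keap1_KO, where 56.5% of all genes had a higher mean. The 3 brightest, Ikzf2, Il2ra and Ctla4, differed by -0.11, -0.05 and 0.08. Over the 8 markers the median difference was 0.34, with a range from -0.22 to 2.35. The list deviated by -0.17, 0.48 and 0.42 on Keap1_KO B, C and D, against -0.20, -0.16 and -0.37 on WT A, D and F.

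Markers of other cells varied by array. B cells carry Ccr6, Ccr7 and Cxcr5. The 7 tested B cell markers (Cd79b, Ms4a1 and Cd79a the brightest) had a mean level of 6.92 to 8.44 on Keap1_KO arrays and 6.33 to 8.35 on WT arrays. Higher means in Keap1_KO were found for 5 of the 7, against 56.5% of all genes. The B cell list deviated by 0.34, -0.60 and 0.92 on Keap1_KO B, C and D, against -0.30, 0.83 and -1.19 on WT A, D and F, with a median difference of 0.27. Neutrophil markers (8 of 8 tested, led by S100a8, S100a9 and Camp) had mean levels of 8.86 to 13.65 on Keap1_KO arrays and 8.64 to 10.27 on WT arrays. All 8 had higher means in Keap1_KO, against 56.5% of all genes, with a median difference of 1.91, above the 1.69 of the tissue-homing receptors. Their deviations were -1.45, 0.93 and 3.35 on Keap1_KO B, C and D, against -1.66, -0.03 and -1.14 on WT A, D and F. Among the Keap1_KO arrays B was thus the lowest and D the highest. Keap1_KO B was also the lowest of its genotype for 8 of the 9 receptors. Keap1_KO D was the highest for Ccr4 (12.63, against 12.44 on C) and Ccr8 (11.94, against 11.87 on C). The highest Keap1_KO array was C for Gpr15, Ccr6, Cxcr3, Ccr7, Cxcr5 and S1pr1, and B for Ccr2. Of the 8 neutrophil markers 1 did not overlap between genotypes, near the 9.11% of all genes that lay higher without overlap. It was Mpo, named after its values were seen (2.47). NK cell markers (6 of 7 tested, led by Gzma, Klrd1 and Klrb1c) had mean levels of 8.13 to 9.79 on Keap1_KO and 6.85 to 9.35 on WT arrays. Monocyte and macrophage markers (6 of 8 tested, led by Ly6c2, Lyz2 and Cd68) had 7.86 to 9.57 on Keap1_KO and 7.36 to 8.88 on WT arrays, and Fcgr1 lay below the array median on all 6 arrays. Dendritic cell markers (6 of 6) had 5.69 to 6.21 on Keap1_KO and 5.68 to 6.20 on WT arrays, and erythroid markers (3 of 4) had 5.98 to 6.18 on Keap1_KO and 5.93 to 6.36 on WT arrays. The CD8 T cell markers Cd8a and Cd8b1 had 6.67 to 8.38 on Keap1_KO and 6.34 to 7.79 on WT arrays. The part of these cells in the receptor differences was not tested.

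**Figure D4:**
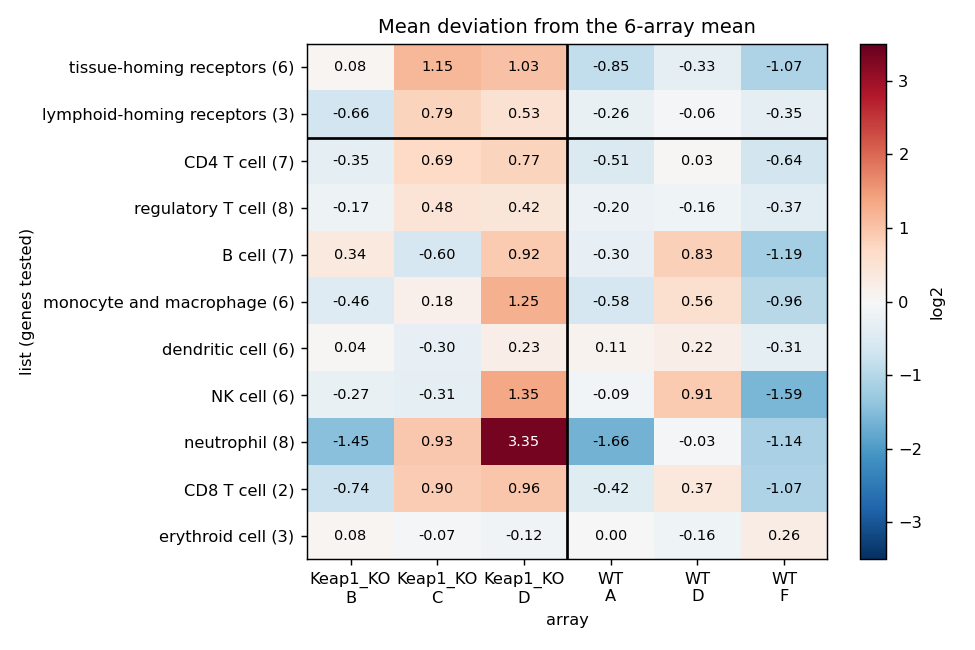
Mean deviation of each list from its genes' own 6-array means (log2, colour and printed value) on the 3 Keap1_KO and 3 WT arrays, with the number of genes tested in brackets. The tissue-homing receptors are above 0 on all Keap1_KO arrays and below 0 on all WT arrays. On Keap1_KO B they reach only 0.08, with Ccr2 at its highest there and Ccr8 and Cxcr3 inside their WT ranges. The neutrophil list is highest on Keap1_KO D, at 3.35.

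Genes around the receptors were read from lists that were likewise chosen with earlier results known. None of their tested genes passed the adjusted threshold. Of all genes, 56.5% had a higher mean in Keap1_KO. The other chemokine receptors (10 of 16 tested) were evenly split, 5 with higher and 5 with lower means in Keap1_KO, with a median difference of 0.03. Ccrl2, an atypical receptor that does not signal, differed by 1.13, the gut-homing receptor gene Ccr9 by -0.62 (unadjusted limma p = 0.0383, exact permutation p = 0.2), the neutrophil receptor gene Cxcr2 by 0.55 and Ccr10 by 0.43, and the arrays of the genotypes overlapped for all 4. Of 6 tested receptors for lipids and sterols, S1pr4, a relative of S1pr1, read 8.73, 9.38 and 9.84 on Keap1_KO B, C and D, against 8.55, 8.62 and 8.12 on WT A, D and F, without overlap (difference 0.89, unadjusted limma p = 0.0289, exact permutation p = 0.1). Gpr183, the oxysterol receptor that positions cells in the spleen, differed by 0.82, Ptgdr2 by -0.56 and S1pr2 by 0.30, all with overlap.

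Of 19 listed chemokine genes, 11 were tested and 5 were below the brightness filter. Of the 11, 6 had higher means in Keap1_KO, and the median difference was 0.21. Ccl1, the CCR8 ligand, read 5.47, 5.66 and 5.62 on Keap1_KO B, C and D, against 5.06, 5.27 and 5.21 on WT A, D and F, a difference of 0.40 (unadjusted limma p = 0.0389, exact permutation p = 0.1) close to the array medians. The CCR4 ligand gene Ccl22 did not reach the brightness filter. Ccl5, a chemokine of cytotoxic and memory T cells, differed by 1.41, Cxcl10 by 0.54 and Ccl3 by 0.43, with overlap.

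For the counts that follow, 56.5% of all genes had a higher mean in Keap1_KO, and 8.38% were higher at unadjusted p under 0.05. Downstream of the receptors, 13 of 17 genes of migration signalling had higher means (median difference 0.32) and 4 were higher at unadjusted p under 0.05. Rac2, a small GTPase of leukocyte movement, read 15.26, 15.92 and 16.32 on Keap1_KO B, C and D, against 14.84, 14.80 and 14.29 on WT A, D and F (difference 1.19, unadjusted limma p = 0.00793, exact permutation p = 0.1), and Gnai2, the G protein subunit that couples chemokine receptors, differed by 0.81, both without overlap. Fermt3, the integrin activator kindlin-3, differed by 1.27 and the actin regulator gene Coro1a by 1.07, with Keap1_KO B below WT D for both. Among genes that switch receptors off, 11 of 12 had higher means (median 0.45). Rgs16, which shortens G protein signals, read 8.90, 10.78 and 9.96 on Keap1_KO B, C and D, against 8.45, 8.61 and 7.99 on WT A, D and F (difference 1.53, unadjusted limma p = 0.0168, exact permutation p = 0.1), and Rgs18, Grk6 and Rgs10 differed by 1.07, 0.65 and 0.62 with overlap.

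Among transcription factors known to act on homing receptor genes, 8 of 12 had higher means (median 0.18). Batf, which partners JUN proteins in tissue Treg cells, read 10.43, 13.31 and 12.85 on Keap1_KO B, C and D, against 9.93, 10.81 and 9.61 on WT A, D and F. As for Ccr8, Keap1_KO C and D were high and Keap1_KO B lay below WT D (difference 2.08, unadjusted limma p = 0.0337, exact permutation p = 0.2). Ahr, the aryl hydrocarbon receptor, a known inducer of Gpr15, read 9.07, 8.94 and 9.19 on Keap1_KO B, C and D, against 8.68, 8.26 and 7.66 on WT A, D and F, without overlap (0.87, unadjusted limma p = 0.0189, exact permutation p = 0.1). Klf2, an activator of S1pr1, differed by 0.83 with overlap, and Satb1, a chromatin organiser of naive T cells, was lower on every Keap1_KO array than on any WT array (-0.70, unadjusted limma p = 0.0424, exact permutation p = 0.1).

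Adhesion genes that act beside the receptors included Itgae, the CD103 integrin chain that binds epithelium. It read 10.73, 12.01 and 11.54 on Keap1_KO B, C and D, against 8.87, 9.43 and 8.78 on WT A, D and F, a difference of 2.40 without overlap (limma adjusted p = 0.476). Selplg, the selectin ligand PSGL-1, differed by 1.12 without overlap, and Itgb7, the partner chain of CD103, by 1.22 and Itgb2 by 0.85 with overlap. Of the 11 tested genes of this list, 10 had higher means, with a median of 0.22.

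**Figure D5:**
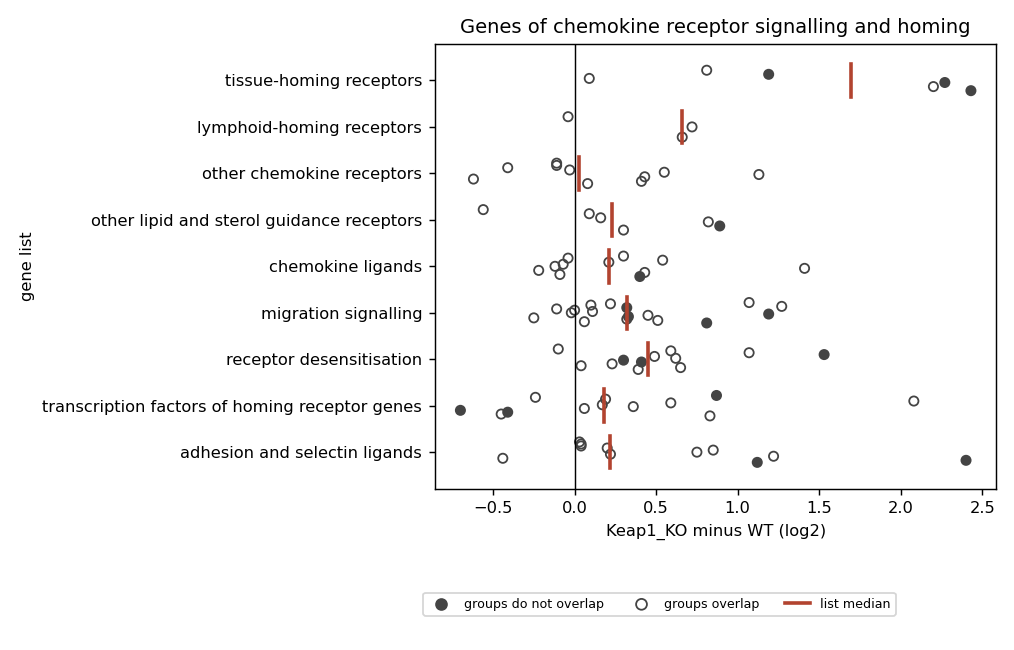
Difference between Keap1_KO and WT (log2, horizontal axis) for each tested gene of the receptor groups and of 7 related lists, filled where the 3 Keap1_KO and 3 WT arrays do not overlap, with the list median in red. The 6 tissue-homing receptors chosen here have the highest median, 1.69, and the other chemokine receptors, gut-homing Ccr9 among them, a median of 0.03.

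The genes whose profile over the 6 arrays lay nearest to a receptor were found by the root-mean-square distance between log2 values, each gene centred on its own mean, among 10993 other protein-coding genes tested. Nearest to Ccr4 were Ctla2a (0.18), a cathepsin inhibitor gene, then Dap and Nrn1 (0.25 each) and Gpr15 (0.27), which like Ccr4 did not overlap between genotypes. Nearest to Ccr8 were Atp5g2 (0.15), Ppp1ca (0.16), Cst7 (0.20) and the histone gene H2ac15 (0.21), whose near-identical copies probes may not separate, and for all 4 the genotypes overlapped. Nearest to Ccr7 were Abhd17a, Rgs10 and Grk6 (0.11 each) and Lrrc41 (0.12). With 6 arrays and this many genes, close profiles are a description.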

How the data were processed

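The authors deposited 1 log2 value for each transcript cluster on each array. The submitters' processing notes name RMA, Transcriptome Analysis Console and Affymetrix Expression Console, without versions, roles or order. RMA is a method of background correction, quantile normalization and probe summary. Per the labels' protocols, 40 ng of RNA from magnetically isolated cells was amplified and labelled. Values ran to 19.93, above the 16 that a 16-bit scanner allows on the log2 scale, so a rescaling that no source states lies behind them, and fold changes are on the deposited scale. No genome build is stated. A Mouse Gene array is named in the design text, but the identifiers of the 65528 clusters matched the annotation of another Affymetrix mouse array, from which gene names were taken and updated through Entrez identifiers. Depth does not apply to arrays, whose number limits the precision.

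A cluster with 1 gene symbol was tested when it read at or above its array's median on at least 3 of 6 arrays, and the brightest stood for a gene (16825 genes). The genotypes were compared with limma 3.58.1 in R 4.3.3 (lmFit, eBayes, two-sided, Benjamini-Hochberg over all genes), and single genes by exact two-sided permutation. The fit was tested on simulated data. Alternatives were no filter, repeated quantile normalization, median-centred arrays, a trended robust prior, array weights, averaged clusters and each array left out. The named genes are all 9 receptors, Keap1, up to 4 tested genes per list with the largest absolute difference, up to 3 brightest markers per cell type and the 4 nearest profiles for Ccr4, Ccr8 and Ccr7. Members, lists and motifs were chosen with earlier results of these data known. Promoter windows are RefSeq's (GRCm38.p6), and 6 of 9 receptors had one.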

Additional observations from a re-analysis of the deposited data

How the results depend on the processing

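Over 12 alternatives, Ccr4, Ccr8, Gpr15, Ccr6, Cxcr3, Ccr7 and Cxcr5 kept a positive difference in all of them. The number of genes past the adjusted threshold was 0 with all arrays, 1 with a trended robust prior, 1880 with array weights and 0 to 569 with 1 array left out, the highest being without Keap1_KO B. With array weights the differences of Ccr4 (2.68, limma adjusted p = 0.0408), Ccr8 (3.14, 0.0408), Gpr15 (2.60, 0.0408), Cxcr3 (1.26, 0.0414) and Ccr6 (1.14, 0.0472) passed, and Ccr2 (-0.20) and S1pr1 (0.001) changed sign without passing. Settings that leave out Keap1_KO B or give it a low weight favour a separation of the genotypes, so their adjusted p-values are a description. S1pr1 was 0.07 with centred arrays. With 1 array left out the differences ranged from 2.03 to 2.93 for Ccr4, 1.73 to 3.13 for Ccr8, 1.96 to 2.69 for Gpr15, 0.35 to 1.10 for Ccr7, -0.24 to 0.39 for Ccr2 and -0.17 to 0.10 for S1pr1. The adjusted p ranged over the alternatives from 0.0408 to 0.90 for Ccr4, from 0.0371 to 0.90 for Ccr8 and from 0.0359 to 0.90 for Gpr15. The receptors with no overlap numbered 3 to 7 with 1 array left out, while the share of all genes ranged from 10.7% to 31.4%, a count chosen after seeing the data. The genotype difference in the deviation of tissue-homing minus T cell genes was also chosen after seeing the data. It was 0.76 and moved to 0.85 with repeated quantile normalization. The cause of these changes was not tested. No paired analysis was run, because the labels do not say that a replicate letter marks a pair, and the genotypes share only 1 letter, D.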
